A study of Mus musculus with 10 samples.

Results

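Interferon-stimulated genes are the genes that cells switch on when interferon, a cytokine of antiviral defence, reaches its receptors. The list followed here holds 34 such genes, chosen by name. A gene counted as measured where the array had a probe set with that gene as its only symbol, and the brightest such probe set was used. This gave 29 of the 34, out of 19937 genes in all. Isg15, Ifi44, Gbp2, Gbp6 and Igtp had no probe set of this kind and were not analysed here. A gene was tested where its mean over all arrays reached the 40th percentile of all probe set means, a log2 intensity of 6.35. Of the 29 genes, 24 passed this filter, among 12670 genes in the whole series. Oas3, Mx1, Mx2, Rsad2 and Cmpk2 lay below it, and their levels are described without a test.

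The samples were primary mediastinal T cell lymphomas of 10 mice, 1 array per mouse. All 10 mice carried the NPM-ALK transgene, a fusion kinase of anaplastic large cell lymphoma, on a C57BL/6 background, and the tumours arose within 4 to 5 months of age. WASP, an actin regulator of blood cells, was intact in 5 mice (labelled WT) and missing in 5 (labelled WASP -/-, which per the design text covers females and males). The promoter that drives the transgene is not given in the sources used here, and no tumour-free or untreated tissue was compared. Each array holds RNA of a whole tumour, so fewer cells of a type and less RNA per cell cannot be told apart.

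Type I interferons signal through the receptor chains IFNAR1 and IFNAR2 and the kinases JAK1 and TYK2, which activate a complex that includes STAT2 and IRF9. This complex binds a DNA element called the interferon-stimulated response element (ISRE). Interferon gamma acts through another receptor and the GAS element, and it is the stronger inducer of the guanylate-binding and immunity-related GTPases. The genes induced include sensors of viral nucleic acid, enzymes and binding proteins that block viral replication, chemokines, and regulators that end the response. The members and lists were chosen with earlier results of these data known, so what follows is a description beside the single test of genotype.

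Array medians lay between 116.7 and 122.7 on the linear scale. Was, which encodes WASP, fell in WASP-deficient lymphomas by 1.14 on the log2 scale (SE 0.084, limma adjusted p = 0.00088). Its 5 values of 7.92 to 8.20 there all lay below the 9.11 to 9.34 of WASP-intact lymphomas. The T cell adhesion molecule Cd2 reached 11.18 on WASP-intact array 4, 11.30 on WASP-intact array 5 and 11.52 on WASP-deficient array 1, with 6.10 to 6.90 on the other 7. Following a cut at log2 9, these 3 arrays are called Cd2-high and the 7 others Cd2-low. They are sets seen in the data, not groups of the study. Xist, the RNA of the inactive X chromosome, was above 11 on 4 of the 5 WASP-intact arrays only, so the Xist level and genotype largely ran together.

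No interferon-stimulated gene passed the test of genotype. Of 24 tested members 0 had an adjusted p under 0.05 (limma, all 24 at 0.999), where 0.00789% of all genes tested passed. At an unadjusted p under 0.05 there were 2 of 24, Irf9 and Ddx58, against 2.89% of all genes tested. The values were higher in WASP-deficient lymphomas for 13 members and lower for 11. Their median log2 difference was 0.02, beside -0.004 over all genes tested. In 0 of the 24 did the 5 WASP-deficient arrays stand clear of the 5 WASP-intact arrays, where 0.568% of all genes tested did so. The median standard error of 0.20 sets what could be seen: the 95% interval for Stat2 ran from -0.27 to 0.18, while that for Ifi203 ran from -3.81 to 2.24. A member that did not pass is not shown to be unchanged.

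**Figure D1:**
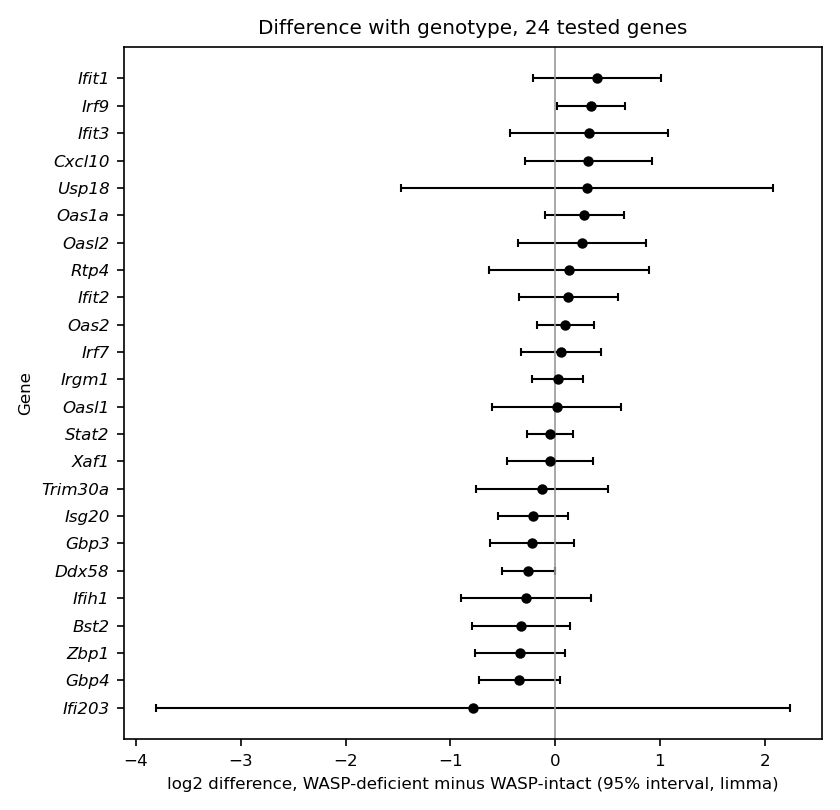
Log2 difference between genotypes (x axis, WASP-deficient minus WASP-intact) for the 24 tested interferon-stimulated genes (y axis, ordered by difference). Points are limma estimates from 5 arrays per genotype and bars their 95% intervals, which are widest for Ifi203 and Usp18. The differences run from -0.78 to 0.40, and no gene passed after adjustment.

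Single lymphomas spread widely. The range over the 10 arrays had a median of 1.12 on the log2 scale for the 24 tested members, beside 0.65 for all genes tested. Stat2 spanned 0.39, Irgm1 0.58 and Oas2 0.65, whereas Ifit3 spanned 2.11, Usp18 3.69 and Ifi203 5.86. A score of the list was taken as the mean over the 29 genes of the log2 level minus the gene's own mean. It was 0.06, -0.15, 0.09, 0.02 and 0.008 on WASP-intact arrays 1 to 5. On WASP-deficient arrays 1 to 5 it was 0.09, 0.47, -0.16, -0.18 and -0.24. WASP-deficient array 2 thus stood above the other 9, and WASP-deficient arrays 3, 4 and 5 had the lowest scores. One of these 3 was the lowest array for 13 of the 24 tested members, near the 49.2% of all genes tested. The genotype means were 0.004 ± 0.094 for WASP-intact and -0.004 ± 0.30 for WASP-deficient lymphomas (SD, n = 5 each), which differ by less than either spread. Without WASP-deficient array 2 the mean of that genotype was -0.12 ± 0.15 (SD, n = 4).

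**Figure D2:**
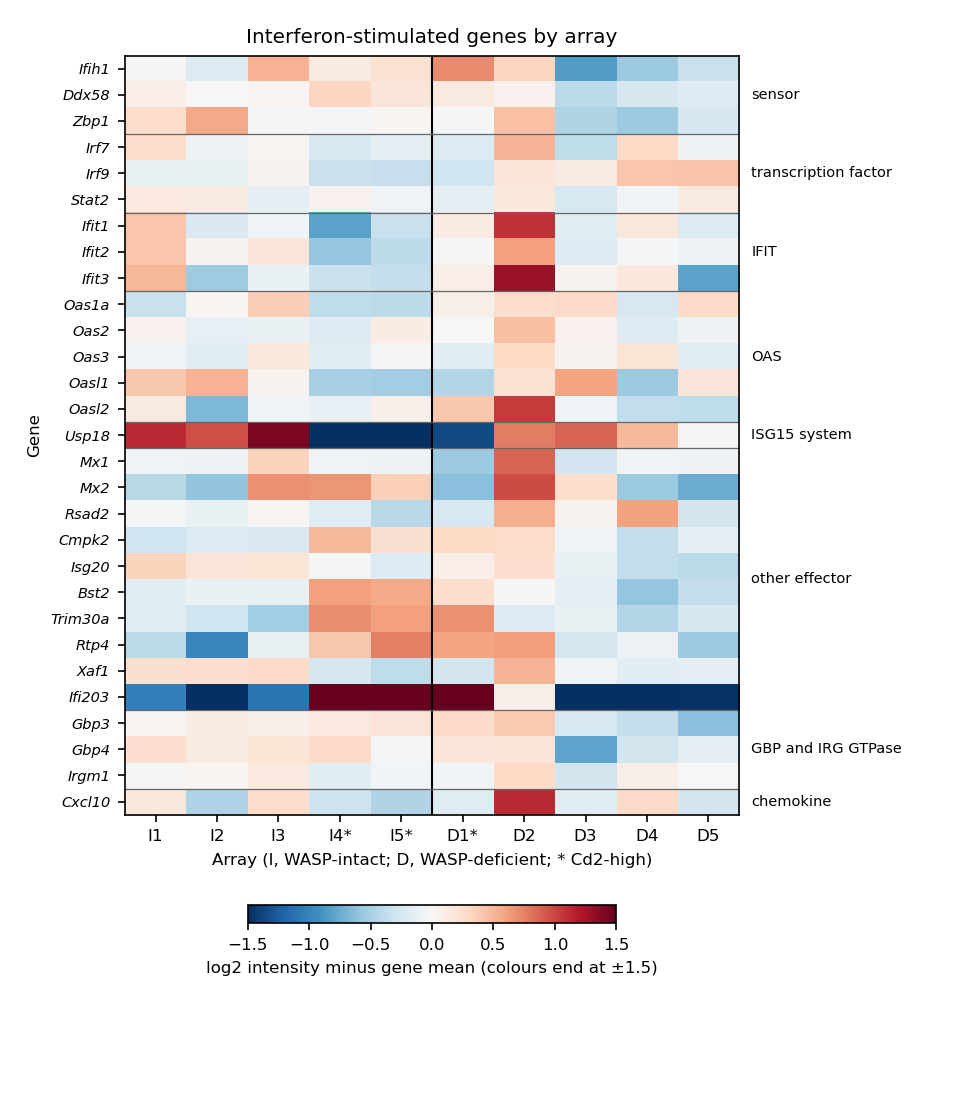
Log2 intensity minus each gene's mean over 10 arrays (colour, ending at ±1.5) for the 29 measured genes (rows, grouped by role) on WASP-intact (I) and WASP-deficient (D) arrays, with * for Cd2-high. WASP-deficient array 2 is high across IFIT genes, Oasl2, Mx1, Mx2 and Cxcl10, and Ifi203 and Usp18 follow the Cd2 sets in opposite directions.

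The IFIT genes, whose products bind viral RNA, varied together. Ifit1 was at 6.78, 6.15, 6.30, 5.56 and 6.04 on WASP-intact arrays 1 to 5 and at 6.49, 7.46, 6.19, 6.54 and 6.16 on WASP-deficient arrays 1 to 5. Ifit3 was at 6.92, 5.89, 6.32, 6.09 and 6.07 and at 6.51, 7.72, 6.48, 6.58 and 5.61 in the same order. Ifit2 was at 8.06, 7.70, 7.84, 7.07 and 7.26 and at 7.67, 8.27, 7.46, 7.62 and 7.56. All 3 were highest on WASP-deficient array 2, with WASP-intact array 1 next, and the genotypes overlapped. Over the 10 arrays Pearson r was 0.91 between Ifit1 and Ifit2, 0.86 between Ifit1 and Ifit3 and 0.72 between Ifit2 and Ifit3. The log2 differences with genotype were 0.40 for Ifit1 (SE 0.28), 0.13 for Ifit2 (SE 0.21) and 0.32 for Ifit3 (SE 0.34), none past the test (limma adjusted p = 0.999).

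Cxcl10, a chemokine that draws activated T cells, had the same high array. It was at 6.60, 5.98, 6.71, 6.13 and 5.98 on WASP-intact arrays 1 to 5 and at 6.25, 7.56, 6.28, 6.73 and 6.17 on WASP-deficient arrays 1 to 5. Its value on WASP-deficient array 2 was 1.31 above the median of the other 9, and r with Ifit1 was 0.86 over 10 arrays. The difference with genotype was 0.32 (SE 0.27, limma adjusted p = 0.999).

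The OAS family, which senses double-stranded RNA and feeds RNA decay, split. Oasl2, an OAS-like protein with ubiquitin-like domains, was at 7.65, 6.84, 7.46, 7.39 and 7.59 on the WASP-intact arrays and at 7.92, 8.56, 7.44, 7.15 and 7.14 on the WASP-deficient ones. Its highest value again lay on WASP-deficient array 2, 1.12 above the median of the others. Oas2 spanned only 6.21 to 6.86 and Oas3, below the filter, 6.01 to 6.49, both with their maximum on that array. Oasl1, which restrains translation of Irf7 RNA, was at 8.04, 8.16, 7.68, 7.14 and 7.11 and at 7.20, 7.87, 8.22, 7.09 and 7.83. Oasl1 thus did not follow its relative, with an r of -0.07 to Oasl2 over 10 arrays. Oas1a lay between 6.46 and 7.21 and was highest on WASP-intact array 3.

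Of the transcription factors, Irf7, the amplifier of type I interferon production, was at 8.07, 7.73, 7.84, 7.56 and 7.66 on WASP-intact and at 7.60, 8.31, 7.41, 8.09 and 7.73 on WASP-deficient arrays. Irf9, the DNA-binding part of the complex with STAT2, was at 8.45, 8.45, 8.61, 8.23 and 8.22 and at 8.27, 8.75, 8.69, 8.98 and 8.99. WASP-deficient arrays 2 to 5 lay above all 5 WASP-intact arrays for Irf9, and WASP-deficient array 1 among them. The difference was 0.34 (SE 0.14, limma unadjusted p = 0.039, adjusted p = 0.999). Stat2 held between 8.57 and 8.96 on all 10 arrays, and r between Irf9 and Stat2 was 0.12.

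The sensors were low on WASP-deficient arrays 3, 4 and 5. Ifih1, which encodes the RNA sensor MDA5, was at 7.73, 7.51, 8.24, 7.85 and 7.94 on WASP-intact and at 8.42, 8.04, 6.87, 7.16 and 7.38 on WASP-deficient arrays. Ddx58, which encodes the RNA sensor RIG-I, was at 9.27, 9.16, 9.21, 9.49 and 9.34 and at 9.30, 9.23, 8.78, 8.92 and 8.97. WASP-deficient arrays 3, 4 and 5 were the 3 lowest for both genes, while arrays 1 and 2 lay at or above the WASP-intact median for Ifih1 and within the WASP-intact range for Ddx58. Zbp1, a sensor of Z-form nucleic acid linked to cell death, was likewise lowest there, at 8.22, 8.14 and 8.43 against 8.66 to 9.24 on the other 7. These were the 3 lowest arrays for 5 of the 24 tested members (Ifih1, Ddx58, Zbp1, Gbp3 and Gbp4), and for 4.03% of all genes tested. The same 3 arrays had the lowest list scores, which these members help to make, so the comparison with all genes favours the list. Pearson r between Ifih1 and Ddx58 was 0.80 over 10 arrays. The differences with genotype were -0.28 for Ifih1 (SE 0.28), -0.25 for Ddx58 (SE 0.11, unadjusted p = 0.050) and -0.33 for Zbp1 (SE 0.19), each with a limma adjusted p of 0.999.

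Among the GTPases linked to interferon gamma, Gbp4 was 0.05, Gbp3 0.31 and Irgm1 0.33 above the median of the other arrays on WASP-deficient array 2. Their median of 0.31 lay beside 0.31 for the sensors, 0.30 for the transcription factors, 0.37 for the OAS genes and 1.27 for the IFIT genes. The other effectors had a median of 0.65, the chemokine Cxcl10 was at 1.31 and Usp18 at 0.28. These values were not tested against each other. Gbp4, a guanylate-binding protein, was at 8.49, 8.37, 8.45, 8.52 and 8.22 and at 8.42, 8.42, 7.45, 7.96 and 8.11, lowest on WASP-deficient arrays 3, 4 and 5. Gbp3 was lowest on the same 3 arrays, at 6.80, 6.68 and 6.41 against 7.06 to 7.43 on the others. Irgm1, which acts on membranes in autophagy and pathogen defence, held between 8.15 and 8.73.

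**Figure D3:**
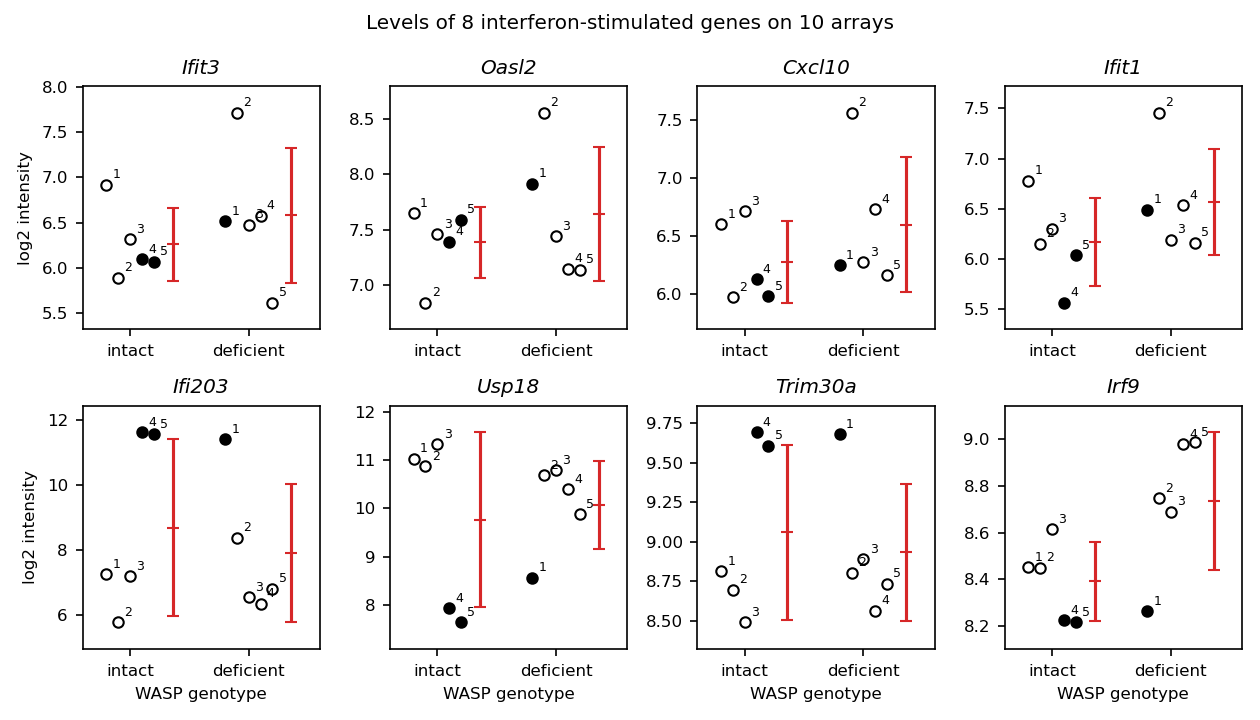
Log2 intensity (y axis) of 8 interferon-stimulated genes by WASP genotype (x axis). Each circle is 1 array with its replicate number, filled where Cd2 was high, and the red bar is the mean with SD (n = 5). Ifit1, Ifit3, Oasl2 and Cxcl10 peak on WASP-deficient array 2, whereas Ifi203, Usp18, Trim30a and Irf9 separate filled from open circles.

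To separate members that move together from those that do not, each of the 29 genes was correlated with the mean centred level of the other 28, and 0.7 or more was called together. Over 10 arrays this held for 4 of 29, Oasl2 (r = 0.90), Gbp3 (0.76), Ifit3 (0.76) and Oas2 (0.73), all 4 among the 24 tested. Of genes outside the list 1.81% reached 0.7 with the list score. The median r was 0.50 for the members and 0.05 for the other genes. These correlations are over arrays normalized together, and since the members were chosen with results known they carry no p.

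Within the 7 Cd2-low arrays more members reached 0.7, as did more genes outside the list, of which 1.81% had done so over 10 arrays. There 13 of 29 reached 0.7, 11 of them among the 24 tested, against 6.06% of genes outside the list. In order of r these were Ifit2 (r = 0.91, Spearman rho = 0.75), Oasl2 (0.91, rho 0.75), Mx1 (0.91, rho 0.64), Ifit1 (0.87, rho 0.57), Cxcl10 (0.87, rho 0.50), Ifi203 (0.86, rho 0.64), Xaf1 (0.85, rho 0.86), Ifit3 (0.83, rho 0.57), Oas2 (0.83, rho 0.43), Gbp3 (0.80, rho 0.79), Mx2 (0.75, rho 0.68), Rtp4 (0.75, rho 0.43) and Ifih1 (0.70, rho 0.71). Mx1 and Mx2 are dynamin-like antiviral GTPases, of which the Mx1 allele of standard C57BL/6 mice is truncated. Xaf1 is a partner of an apoptosis inhibitor, and Rtp4 a receptor chaperone with antiviral activity. A further 11 lay from 0.3 to under 0.7, among them Irf7 (0.67), Ddx58 (0.64), the tetherin gene Bst2 (0.63) and Rsad2, which encodes viperin (0.45). The 5 under 0.3 were Stat2 (0.24), Oas1a (0.13), Trim30a (0.10), Oasl1 (0.02) and Irf9 (-0.27). All 3 IFIT genes were among the 13, and 0 of the 3 transcription factors were.

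Much of this common movement rested on 1 lymphoma. WASP-deficient array 2 was the highest of the 10 arrays for 14 of the 29 members and for 11 of the 24 tested, where it was the highest for 9.93% of all genes tested. The filter used the mean over all 10 arrays, and Ifit1, Ifit3 and Cxcl10 passed it only with this array included. The count among tested members follows in part from that. Among the 7 Cd2-low arrays WASP-deficient array 2 was the highest for 14 of the 24, against 16.8% of all genes tested. This array was singled out by its high list score, which the members make, so both comparisons with all genes favour the list. WASP-deficient array 2 lay above the median of the other 9 arrays for 28 of 29 members, Trim30a being the exception. The share of all genes tested above that median was not computed, so this count has no baseline and is not read as a result. This array was the lowest of the 10 for 0 of the 29 members and for 3.49% of all genes tested. Without it, 6 of 29 members reached an r of 0.7 over the remaining 6 Cd2-low arrays, against 5.09% of genes outside the list. Of the 13 genes above, 3 did so, which were Ifit2 (0.82), Xaf1 (0.76) and Ifih1 (0.74). The other 3 were Usp18 (0.81), Isg20, an exonuclease of RNA (0.78), and Ddx58 (0.71). Ifit1 fell to 0.48, Ifit3 to 0.49, Cxcl10 to 0.53 and Oas2 to 0.25. Leaving out WASP-deficient arrays 2 and 5, the 2 farthest from the median score, 3 of 29 reached 0.7 over the 8 that remained. The share of genes outside the list was not computed for those 8 arrays.

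**Figure D4:**
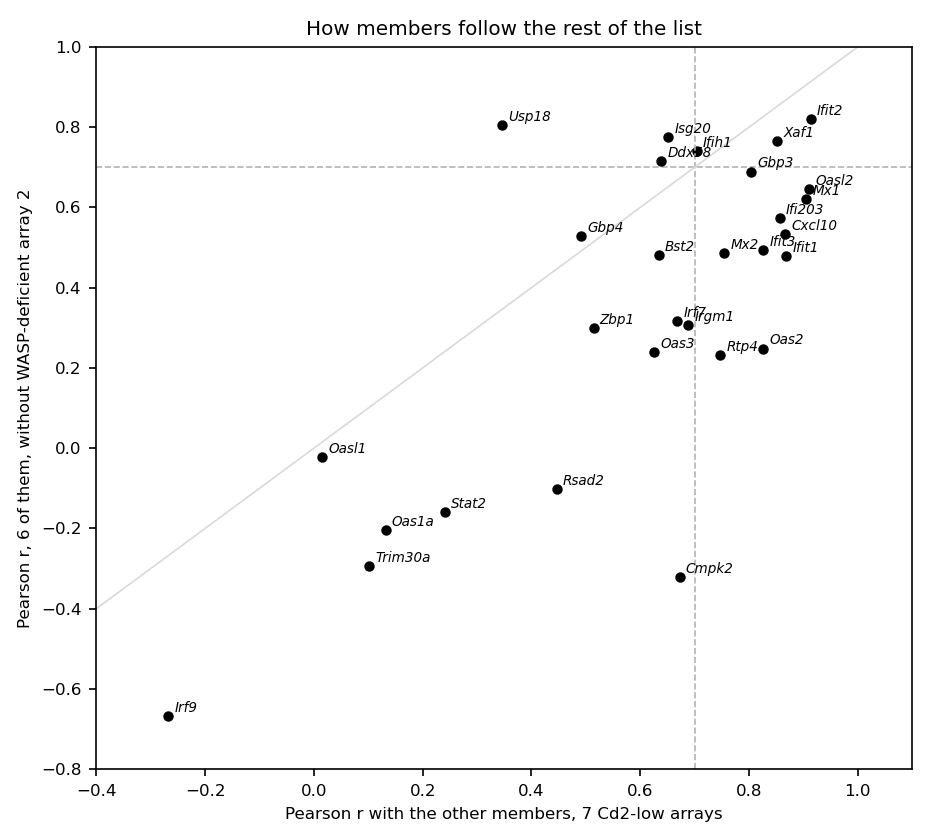
Pearson r of each of the 29 genes with the mean of the other 28, over the 7 Cd2-low arrays (x axis) and over 6 of them without WASP-deficient array 2 (y axis). Dashed lines mark 0.7 and the grey line marks equal values. Most genes lie below the grey line, with Ifit2, Xaf1 and Ifih1 past 0.7 on both axes and Irf9 negative on both.

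**Figure D5:**
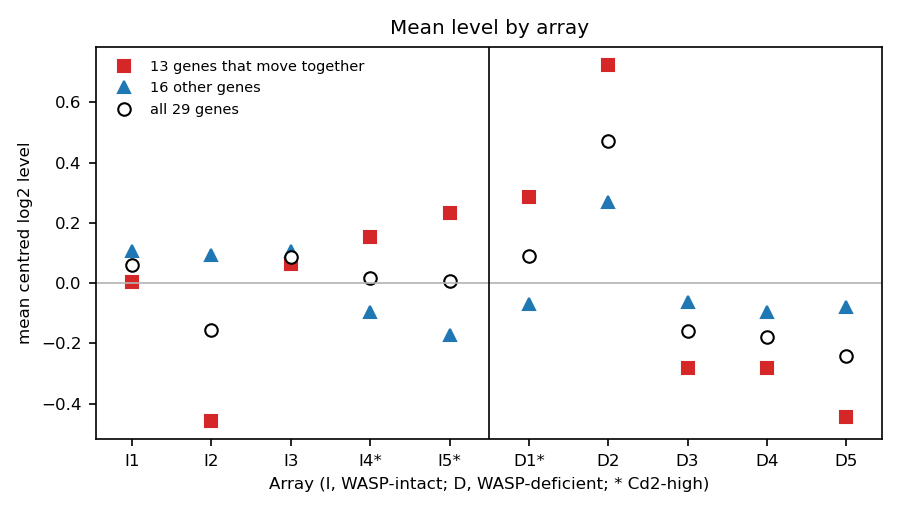
Mean centred log2 level (y axis) on each array (x axis) of the 13 genes with r of 0.7 or more over Cd2-low arrays (squares), the 16 others (triangles) and all 29 (open circles). The squares reach 0.72 on WASP-deficient array 2 and lie between -0.46 and 0.29 on the other 9. These 13 genes were chosen by r over arrays that include WASP-deficient array 2. Of the 13, 12 had their highest Cd2-low value there, so the high squares follow in part from that choice. The values on Cd2-high arrays (*) include Ifi203, which was over 11 there.

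Marker lists of other cell types ranked from the highest to the lowest of 10 on WASP-deficient array 2. The summed linear intensity of 15 macrophage markers was 12825 there, the highest of 10 arrays, within a range of 7381 to 12825 for WASP-deficient and 8198 to 10868 for WASP-intact lymphomas. Of 14 tested macrophage markers 6 had their maximum on that array, where 9.93% of all genes tested did. For tested T cell markers this count was 0 of 10 and for plasmacytoid dendritic cell markers 1 of 6. For endothelial markers it was 1 of 6, for NK cell markers 0 of 2 and for B cell markers 0 of 1. The sum of 11 conventional dendritic cell markers was 6503, also the highest, within 2767 to 6503 and 2507 to 4382, and 4 of 7 tested had their maximum there. By the mean centred log2 level the dendritic list was not highest there, at 0.34 against up to 0.46 on another array, whereas the macrophage list was, at 0.34 against up to 0.25. Flt3, Xcr1, Clec9a and Cd209a of that list lay below the filter. The sum of 8 plasmacytoid dendritic cell markers, a cell type that makes much interferon, was 4374, lower than on 8 other arrays, and its defining marker Siglech stayed between 5.92 and 6.30, below the filter. T cell markers summed to 20380, within the 17395 to 22234 of the 10 arrays. Endothelial markers summed to 1646, the lowest of the 10 arrays, and the sums of neutrophil, B cell and NK cell markers ranked 3, 5 and 6 from the top. Most markers behind these last 3 ranks were dim. All 10 neutrophil, 4 of 5 B cell and 6 of 8 NK cell markers lay below the filter. The part of these cells in the high interferon-stimulated genes was not tested.

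Other genes of the pathway gave the following counts by genotype. Of 18 tested receptor and signalling genes 0 passed in either direction, with 6 higher and 12 lower values and a median difference of -0.09. Those of smallest p were Irf5, a factor of myeloid interferon production (0.28, SE 0.12), Il10rb, a chain of the lambda interferon receptor (0.23, SE 0.10), and Jak1 (-0.21, SE 0.11). Of 18 tested nucleic acid sensing genes 0 passed, with 6 higher and 12 lower values. Samhd1, which degrades nucleotides, was at 0.73 (SE 0.25), Eif2ak2, the RNA-activated kinase PKR, at -0.26 (SE 0.16) and Ikbke at -0.23 (SE 0.18). Of 47 tested interferon-stimulated genes outside the list 0 passed, with 21 higher and 26 lower values and a median of -0.01. Ifitm1, which blocks viral entry, was at 0.38 (SE 0.12) and the antibody receptor Trim21 at -0.24 (SE 0.09). All of these had a limma adjusted p of 0.999.

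Those 47 genes also shared the movement of the list in part. Over the 7 Cd2-low arrays 13 of 47 reached an r of 0.7 with the list score, against 6.06% of genes outside the list, and over 10 arrays 5 did, against 1.81%. WASP-deficient array 2 was the highest of 10 for 10 of the 47, against 9.93% of all genes tested. Of the receptor and signalling genes 1 of 18 reached 0.7 over the Cd2-low arrays, which is near that background, and of the sensing genes 4 of 18. Of 14 measured interferon genes themselves 10 lay below the filter, 0 of the 4 tested passed or reached 0.7, and none spanned more than 0.89 over the 10 arrays. Ifnb1, the gene of interferon beta, stayed between 4.63 and 5.03 and Ifng between 6.14 and 6.53, both below the filter (named after their values were seen).

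The 10 genes outside the list with the highest r to its score over 10 arrays were Hspbp1 (0.92), Tfip11 (0.91), Zwilch (0.88), Zeb2 (0.87), Tomm20l (0.87), Plk1 (0.87), Papss2 (0.87), Rad51b (0.87), Lrrk1 (0.87) and Ap1s3 (0.86). None of them was on the fixed lists of interferon genes.

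The Cd2-high and Cd2-low arrays were described without a test, because the sets were seen in the data. Of 24 tested members 4 lay higher on all 3 Cd2-high arrays than on any Cd2-low array, which were Ifi203, Trim30a, Bst2 and Ddx58, and 14.4% of all genes tested did so. Another 3 lay lower on all 3, which were Usp18, Xaf1 and Irf9, and 16.1% of all genes tested did so. The other 17 overlapped, as did the 5 genes below the filter. These shares are close to those of all genes. The list score held between 0.008 and 0.09 on the 3 Cd2-high arrays, inside the -0.24 to 0.47 of the others.

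Ifi203 and Usp18 carried the widest of these gaps, in opposite directions. Ifi203, of the PYHIN family of nucleic acid binding proteins, was at 11.62, 11.56 and 11.42 on the Cd2-high arrays. On the Cd2-low arrays it was at 7.26, 5.76 and 7.19 in WASP-intact and at 8.38, 6.54, 6.34 and 6.81 in WASP-deficient lymphomas. The medians of 11.56 and 6.81 lie 27.0-fold apart on the linear scale. The PYHIN genes are near-identical in part, so its probe set may also read relatives. Usp18, the protease that removes ISG15 and dampens the receptor, was at 7.94, 7.63 and 8.56 on the Cd2-high arrays, and at 11.02, 10.87 and 11.32 in WASP-intact and 10.68, 10.78, 10.39 and 9.88 in WASP-deficient Cd2-low lymphomas. Its medians lie 7.19-fold apart, lower where Cd2 was high. The sets did not overlap for either gene, and neither gene followed the rest of the list over 10 arrays (r = -0.02 for Ifi203 and -0.22 for Usp18).

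Smaller gaps were seen for the others. Trim30a, a brake on NF-kappaB signalling, was at 9.69, 9.61 and 9.68 on the Cd2-high arrays and between 8.49 and 8.89 on the rest, 1.92-fold apart by medians. Bst2, which tethers virus particles to the membrane, was at 9.12, 9.07 and 8.77 against 7.91 to 8.51. Bst2 is also a marker of plasmacytoid dendritic cells, whose 8 measured markers, Bst2 included, summed to 10567 to 11461 on Cd2-high and 4063 to 9019 on Cd2-low arrays, with Siglech below the filter throughout. Their part in the Bst2 level was not tested. Ddx58 was at 9.30 to 9.49 against 8.78 to 9.27, Xaf1 at 7.37 to 7.49 against 7.60 to 8.26 and Irf9 at 8.22 to 8.27 against 8.45 to 8.99. Rtp4, at 7.54, 7.89 and 7.73 against 6.16 to 7.76, overlapped only through WASP-deficient array 2.

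The ISRE is the element best known for this class of genes, and the promoters were read for its core. RefSeq promoters (GRCm38.p6, 250 bases before to 50 after the start of transcription) were on hand for 22 of the 29 measured genes. The core searched was GAAA, any 2 bases, then GAAA, on either strand, which reads TTTC, any 2 bases, then TTTC on the other; overlapping matches were counted. It occurred in 14 of the 22 genes (63.6%), against 3.99% of all 27025 genes with a promoter. Among genes that moved together over Cd2-low arrays 6 of 9 held it, and among the others 8 of 13, so both sets held it. The GAS core, TTC, any 3 bases, then GAA, the same on both strands, occurred in 4 of the 22 and in 9.55% of all genes. A match is a string of letters and not a measured binding site. The stretches below, 60 bases each and written 5′ to 3′ along the gene's strand, show the core in capitals for 4 genes that moved together and 3 that did not.
Ifit1 (chr19:34640765-34640824, plus strand, together): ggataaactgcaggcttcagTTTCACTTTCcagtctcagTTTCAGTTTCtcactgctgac
Ifit3 (chr19:34583353-34583412, plus strand, together): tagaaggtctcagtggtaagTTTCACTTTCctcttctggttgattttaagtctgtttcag
Cxcl10 (chr5:92349063-92349122, minus strand, together): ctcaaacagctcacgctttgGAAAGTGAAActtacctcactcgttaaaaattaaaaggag
Gbp3 (chr3:142559979-142560038, plus strand, together): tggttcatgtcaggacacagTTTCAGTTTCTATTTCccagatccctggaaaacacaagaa
Oas1a (chr5:120907526-120907585, minus strand, not together): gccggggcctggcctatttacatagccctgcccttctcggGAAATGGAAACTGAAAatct
Trim30a (chr7:104465194-104465253, minus strand, not together): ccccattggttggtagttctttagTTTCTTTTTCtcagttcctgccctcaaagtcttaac
Stat2 (chr10:128270256-128270315, plus strand, not together): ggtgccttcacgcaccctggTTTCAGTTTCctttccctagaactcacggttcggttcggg

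In Ifit1 the 2 cores begin 104 and 85 bases before the start, and in Ifit3 they begin 156 and 122 bases before it, the second at the end of the stretch shown, running past it and left in lower case. In Gbp3 and Oas1a the 2 cores overlap. The core of Cxcl10 begins 213 bases before the start, that of Stat2 222 and that of Trim30a 36. Oasl2, which followed the list most closely over 10 arrays, held no core in this window. Ifit2 and Xaf1, which also moved together over the Cd2-low arrays, held none either. Among the others, Irf9 and Oasl1, which did not follow the list, held none, nor did Irf7, Isg20 and Cmpk2.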

How the data were processed

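Total RNA of 10 lymphomas was hybridised to Affymetrix arrays, 1 array per mouse. Each deposited value is the intensity of a probe set. The submitters' processing notes name RMA, while its software and version were not given in the sources used here. They ran from 3.309 to 15587.9, a linear scale, so log2 of the deposited intensity was taken. Depth has no meaning for arrays, and the number of arrays limits the precision. No column was left unused.

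Of 34760 probe sets, 21640 had 1 symbol in the platform annotation, 1321 several and 11799 none. Gene IDs matched RefSeq (GRCm38.p6) for 21553, and 0 symbols changed. Groups came from the sample titles, whose replicates are called biological. Genotypes were compared with limma 3.58.1 (lmFit, eBayes, no covariate) in R 4.3.3, with Benjamini-Hochberg adjustment over 12670 genes, checked on simulated data. The rule for naming genes took all members, the 3 genes of smallest p in each other list, the 10 genes most like the score, Was, Cd2 and Xist, and 1 further gene not reported here. Ligand and marker lists are given by counts and sums. Siglech, Flt3, Xcr1, Clec9a, Cd209a, Ifnb1 and Ifng fall outside the rule and were named after their values were seen. Members and lists were chosen with earlier results of these data known. Scores, correlations and Cd2 sets were described without a test. Alternatives changed the filter, the probe set rule, the offset, the limma settings, array weights, covariates and the arrays used. Scores and plots were made in Python 3.11.15 (matplotlib 3.10.9).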

Additional observations from a re-analysis of the deposited data

Results flagged for a closer look

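In 4 of 60 groups of 5 arrays (29 genes and their score in each genotype), 1 array stood apart from the other 4 by Dixon's criterion, with a gap over 0.71 of the group's range. Chance flags about 1 in 20 groups. On WASP-deficient array 2, Ifit1 was at 7.46 against 6.16 to 6.54 on the other 4 WASP-deficient arrays, Ifit2 at 8.27 against 7.46 to 7.67, and Xaf1 at 8.26 against 7.48 to 7.70. On WASP-intact array 3, Mx1 was at 6.39 against 5.95 to 5.99, below the filter on dim probe sets.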

How the results depend on the processing

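Over 20 alternatives 0 members passed the test of genotype in any, with an adjusted p between 0.659 and 1. Of 472 member differences 424 kept their direction, 11 members in every alternative. With the 7 Cd2-low arrays alone 13 members moved together in place of 4, and with each member divided by its SD (chosen after seeing the data) 7 did. The 13 members whose sign turned include Ifi203, with the widest difference, and Usp18 and Cxcl10. With array weights Oasl1 was at -0.27, Usp18 at -0.50, Trim30a at 0.0796 and Ifi203 at 0.95. With Cd2-high as a covariate Oasl1 was at -0.13, Usp18 at -0.24, Trim30a at 0.0676, Ifi203 at 0.15 and Irgm1 at -0.00077. With Cd2-low arrays only Ifit2 was at -0.14, Oasl1 at -0.21, Usp18 at -0.64, Trim30a at 0.0823, Ifi203 at 0.28 and Irgm1 at -0.0266. With Xist as a covariate Irf7 was at -0.0480, Stat2 at 0.0941, Ifit2 at -0.14, Oas1a at -0.14, Usp18 at -1.07, Trim30a at 0.37, Ifi203 at 0.41, Irgm1 at -0.14 and Cxcl10 at -0.10. Leaving out 1 array at a time, Xaf1 ran from -0.18 to 0.0122, Rtp4 from -0.10 to 0.34, Ifit2 from -0.0131 to 0.24, Oasl1 from -0.13 to 0.15, Usp18 from -0.23 to 0.69, Trim30a from -0.31 to 0.0330, Irgm1 from -0.0497 to 0.10, Irf7 from -0.0630 to 0.16, Oas2 from -0.0018 to 0.16 and Stat2 from -0.0932 to 0.0053. The cause of these turns was not tested. The score difference between genotypes, -0.0076, ran from -0.13 to 0.05 and the count apart between Cd2 sets from 7 to 10.

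Was lost its call with the replicate block (-1.14, adjusted p = 0.136) and with the Xist covariate (-1.06, adjusted p = 0.376). The replicate numbers are not stated to pair the animals. Deviations of same-numbered arrays correlated from -0.71 to 0.37. Same-numbered arrays can differ in Cd2 set, so these correlations cannot settle whether animals were paired. With the block the median member difference stayed at 0.02 and 0 members passed.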
